A study of Mus musculus with 6 samples.

Results

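Cytochrome P450 genes were described in the epididymal fat (white adipose tissue next to the testis) of male C57BL/6J mice, 20 weeks old and fed a normal diet. The genes were chosen by symbol alone (Cyp, a family number, subfamily letters and a gene number), leaving out Cyp26b1 and pseudogene symbols, and 93 of the 21829 genes in the table met that rule. They fell into 16 families and 38 subfamilies. The series holds mRNA libraries of ZFP251 knockout mice (3, labelled KO) and of their wild-type littermates (3, WT), and the stated question was the role of the zinc finger protein ZFP251 in this fat. The labels do not name the allele, the exons removed or the tissue in which the gene was deleted, nor do they say that each library came from a separate mouse. P-values therefore measure the spread between libraries, which may be partly technical.

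P450 enzymes are heme proteins that insert an oxygen atom into small lipophilic molecules. Most sit in the endoplasmic reticulum and take electrons from the reductase Por, while a few sit in mitochondria and take them from the ferredoxin Fdx1. Families Cyp1 to Cyp3 oxidise foreign chemicals and some fatty acids, family Cyp4 hydroxylates fatty acids and eicosanoids, and the families with higher numbers make or break down steroids, sterols, bile acids, vitamin D and retinoic acid. The liver carries most of them, and fat is known to express a smaller set.

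Values are FPKM, which divides fragments by the length of the transcript and the size of the library, so levels of different genes could be compared per length. The total depth behind them is unknown, and a low value may rest on few fragments. Zfp251, the targeted gene, went against the labels, with 6.48, 5.86 and 6.48 FPKM across the libraries labelled KO 1 to KO 3 against 3.73, 3.56 and 2.95 FPKM across WT 1 to WT 3. Every direction below is that of the libraries labelled KO. The fat cell marker Adipoq had between 2097 and 5889 FPKM in all 6 libraries, as the tissue label says. The endothelial gene Cdh5 was lowest in WT 3, at 28.7 FPKM, and had 71.5 to 85.3 FPKM elsewhere. Neutrophil markers summed to 20.6 to 42.6 FPKM in WT and 4.83 to 8.57 FPKM in the libraries labelled KO, while endothelial, macrophage, mesothelial, mural and progenitor sums were 232 to 377, 572 to 900, 25.4 to 74.2, 80.2 to 294 and 1016 to 1452 FPKM over all libraries. Of the neutrophil markers, S100a8 and S100a9 kept the groups apart, Retnlg overlapped and Ly6g was listed at 0 in all 6 libraries. Epithelial RNA separated libraries within the WT group: Epcam, an epithelial adhesion molecule, had 14.2 FPKM in WT 1, 0.199 in WT 2 and 0.191 in WT 3, against 30.8, 34.3 and 16.4 FPKM across KO 1 to KO 3. WT 3 also held more signal from short transcripts, with a median deviation from the gene mean of 0.26 on the log2 scale for transcripts of 1500 to 2000 nt, where the other 5 libraries lay between -0.08 and -0.02.

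A small part of the family carried nearly all of its RNA. Of the 93 genes, 20 reached 1 FPKM on average over the 6 libraries, the level used as the filter for testing, and 10 had a mean of at least 10 FPKM. A further 9 had a mean from 0.3 to under 1 FPKM, 34 lay above 0 and under 0.3 FPKM, and 30 were listed at 0 in every library. The highest mean among the 34 was 0.154 FPKM, that of Cyp11a1. The filter fell between Cyp2ab1 at 1.15 FPKM and Cyp2u1 at 0.939 FPKM. Cyp2e1 alone held between 89.5% and 95.2% of the summed P450 FPKM of a library, and it stood between rank 6 and rank 12 among all genes of the table.

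**Figure D1:**
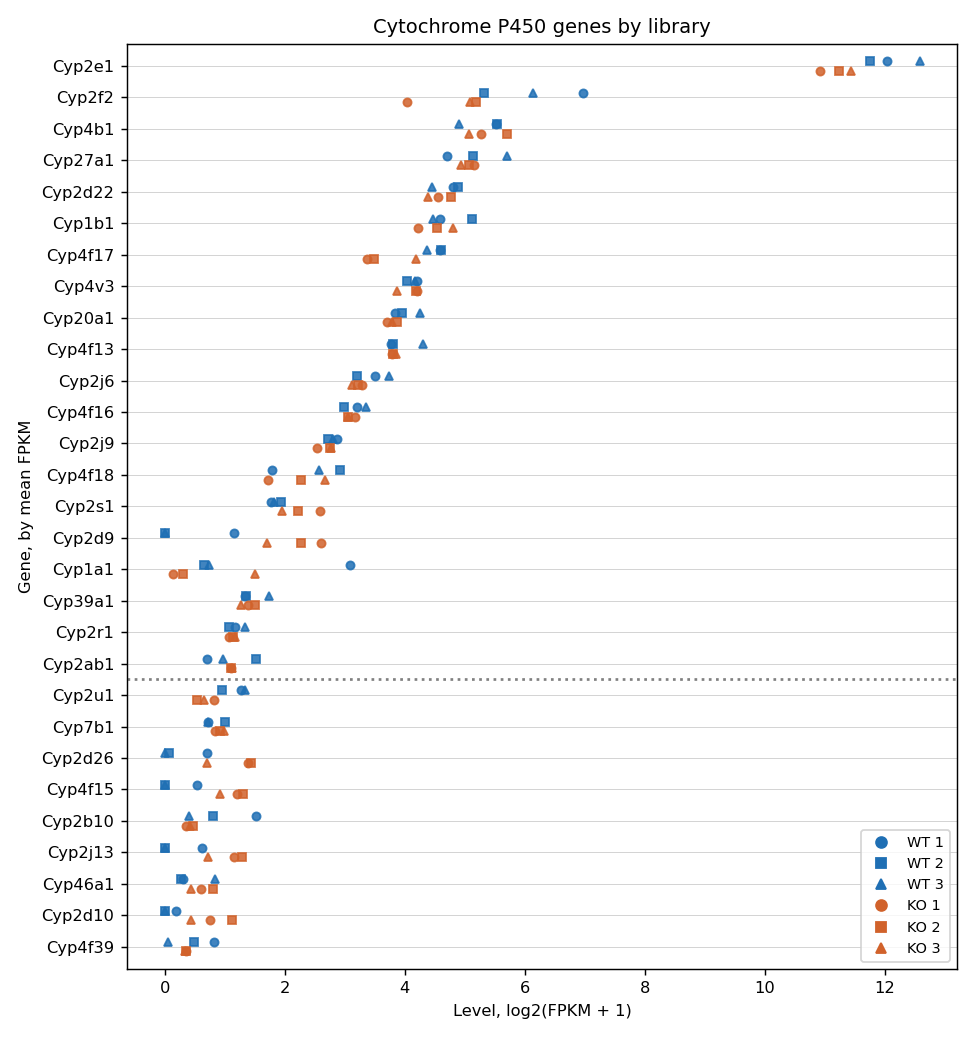
Level of the 29 P450 genes averaging 0.3 FPKM or more, on the log2(FPKM + 1) scale, with 1 point per library (blue WT, orange the libraries labelled KO), ordered by mean; the dotted line marks the filter of 1 FPKM. Cyp2e1 stands far to the right of every other gene, and its 3 WT points lie above its 3 KO points.

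Cyp2e1, the enzyme that oxidises ethanol, acetone and small solvents, lies on chromosome 7 from 140763739 to 140774987 on the plus strand (GRCm38, ENSMUSG00000025479). Its level was 4169, 3440 and 6110 FPKM across WT 1 to WT 3, against 1925, 2405 and 2764 FPKM across KO 1 to KO 3. The groups did not overlap: the highest KO library lay below the lowest WT library, and WT 3 stood above the other WT libraries. The means were 4573 ± 1380 FPKM (SD, n = 3) in WT and 2365 ± 421 FPKM (SD, n = 3) in those labelled KO, a ratio of 0.517. The log2 difference was -0.92 (95% interval -1.64 to -0.21) and did not pass limma's adjusted threshold of 0.05 (adjusted p = 0.252, unadjusted p = 0.0182). It ran from -1.11 to -0.69 with a library left out, was -0.40 after quantile normalization and passed with sample weights (-0.94, limma adjusted p = 0.039).

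Fat cell markers differed among themselves in the same libraries. Of the 8, 5 lay lower in the libraries labelled KO with no overlap (Adipoq, Cidec, Fabp4, Pnpla2 and Cfd) and 3 overlapped (Plin1, Lipe and Lep). Log2 differences were -0.09 for the lipid droplet protein Plin1 (limma adjusted p = 0.836) and -0.10 for the lipase Lipe (limma adjusted p = 0.791). The summed level of all 8 adipocyte markers was 36980 to 70070 FPKM in WT and 26620 to 32430 FPKM in the libraries labelled KO, with the highest sum in WT 3, and Fabp4 and Cfd made up 72.5% to 81.5% of it. Adipoq averaged 3842 ± 1773 FPKM (SD, n = 3) in WT and 2269 ± 206 FPKM in the other group (log2 difference -0.67, limma adjusted p = 0.444). Set against Adipoq in the same library, Cyp2e1 had 149, 121 and 104 FPKM per 100 FPKM of Adipoq across WT 1 to WT 3, and 91.8, 109 and 111 across KO 1 to KO 3. These ratios overlapped between the groups, with WT 3 below KO 2 and KO 3. Per 100 FPKM of the 8 markers the WT libraries had 11.3, 9.04 and 8.72 FPKM of Cyp2e1 and the libraries labelled KO had 7.23, 8.97 and 8.52, which overlapped too. The outcome depended on the marker: the ratio of Cyp2e1 to Plin1, Cidec or Lipe kept the groups apart, and its ratio to the 5 other markers did not. Per 100 FPKM of Plin1 Cyp2e1 had 380, 282 and 477 FPKM across WT 1 to WT 3 and 170, 230 and 228 FPKM across KO 1 to KO 3. These ratios were added after the data were seen. The part of the fat cell markers in the Cyp2e1 difference was not tested. In whole tissue, fewer fat cells and less RNA per fat cell cannot be told apart. Liver RNA was near 0: the hepatocyte marker Alb had 3.39 to 8.78 FPKM and each of the 5 other hepatocyte markers under 1.2 FPKM in every library.

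Across all 93 genes the summed level was 4529, 3726 and 6419 FPKM across WT 1 to WT 3 and 2151, 2674 and 3007 FPKM across KO 1 to KO 3. The sum therefore followed Cyp2e1. Without Cyp2e1 it was 360, 286 and 309 FPKM against 226, 269 and 243 FPKM, still without overlap, a difference of means of -72.3 FPKM. Cyp2f2 made up most of that remainder's difference, and without both genes the sums were 241 ± 5.38 FPKM (SD, n = 3) in WT and 218 ± 13.2 FPKM in the libraries labelled KO. Totals over all genes of the table differed too. They were 472120, 468499 and 637902 FPKM across WT 1 to WT 3. Across KO 1 to KO 3 they were 426966, 428924 and 439354 FPKM. The 93 genes held 0.959%, 0.795% and 1.01% of these totals in WT and 0.504%, 0.623% and 0.684% in the libraries labelled KO. Those shares did not overlap. Set against the same totals, the sum without Cyp2e1 did overlap between the groups, with WT 3 lowest. No p-value was computed for a sum over the family.

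Between the groups, limma called none of the 12539 tested genes at an adjusted p under 0.05 (0%; smallest adjusted p 0.223), and hence no P450 gene did. At an unadjusted p under 0.05, 1700 genes (13.6%) were called, of which 9.13% of genes lay higher and 4.43% lay lower in the libraries labelled KO. The share with higher values among these calls was 67.4%, and 56.2% after quantile normalization. Among the 20 tested P450 genes, 4 had an unadjusted p under 0.05, 1 higher (Cyp2d9, which reached the filter only through the libraries labelled KO) and 3 lower (Cyp2e1, Cyp2f2 and Cyp4f17). The groups did not overlap in 5 of the 20, where the background over all tested genes was 22.2% (10.1% higher and 12.2% lower). These 5 were the 4 genes above and Cyp2s1. Lower values in the libraries labelled KO were found in 16 of the 20, beside 59.2% of all tested genes, and the median log2 difference was -0.13 beside -0.05 over all tested genes. That count was 17 without WT 1, 14 without WT 2 and 12 without WT 3, and with no filter 27 of 63 were lower. The share of all genes with lower values was not computed for these settings. With sample weights, where 31.2% of all genes had an unadjusted p under 0.05, 970 genes of the table passed the adjusted threshold, 5 of them P450 genes (Cyp2e1, Cyp2f2, Cyp4f17, Cyp1a1 and Cyp2d9). Without WT 1, 482 genes passed, 1 of them a P450 gene (Cyp2d9).

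**Figure D2:**
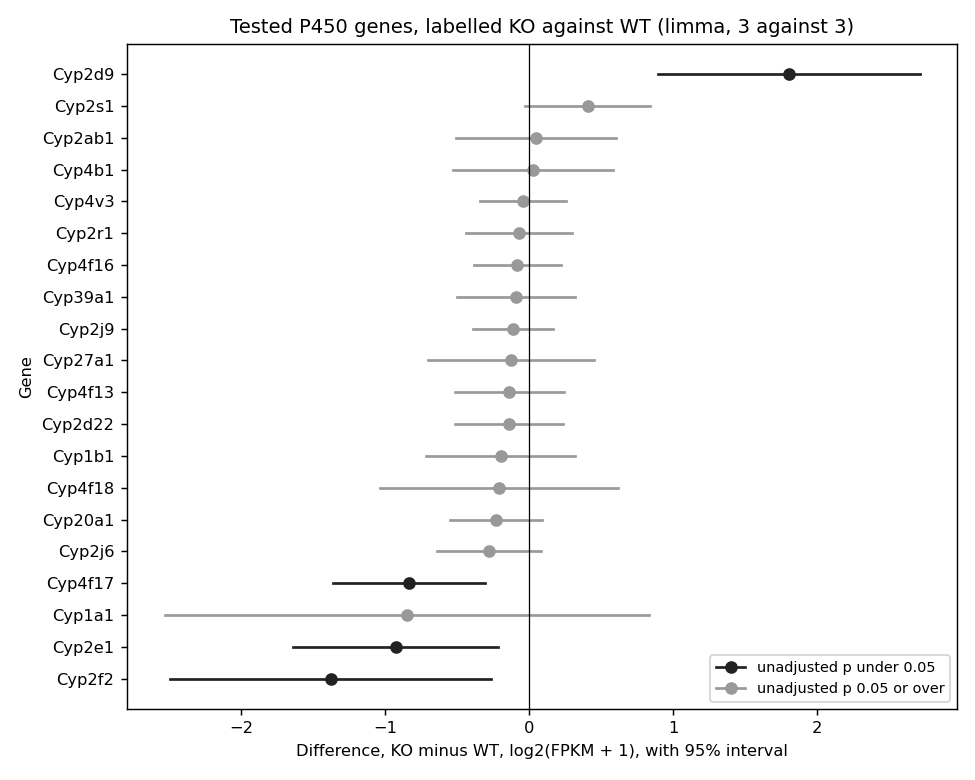
Log2 difference of the 20 tested P450 genes between the libraries labelled KO and WT, with 95% intervals from limma (3 libraries in each group); black marks an unadjusted p under 0.05. Cyp2d9 is the 1 gene whose interval lies above 0, at 1.80, and those of Cyp2f2, Cyp2e1 and Cyp4f17 lie below 0.

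In family Cyp2, 9 of 49 genes passed the filter and 19 were listed at 0 in every library. Cyp2f2, known for activating naphthalene in the airway, was the next most abundant P450 gene after Cyp2e1 by mean level. It had 124, 39 and 69.4 FPKM across WT 1 to WT 3, against 15.3, 35.3 and 32.8 FPKM across KO 1 to KO 3. WT 1 was the highest library and WT 2 lay only just above KO 2, so the groups were separate by a narrow gap. The log2 difference was -1.38 (95% interval -2.49 to -0.26, limma adjusted p = 0.276), with -0.96 without WT 1 and -2.27 with sample weights. Relative to Adipoq the groups overlapped, with 4.44, 1.37 and 1.18 FPKM per 100 FPKM of Adipoq across WT 1 to WT 3 and 0.732, 1.6 and 1.31 across KO 1 to KO 3. Its ratios to each of the 8 adipocyte markers overlapped.

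Cyp2d22, of the subfamily that oxidises many drugs, was the other abundant gene of family Cyp2. Its level was 26.7, 28.5 and 20.9 FPKM across WT 1 to WT 3 and 22.4, 26.4 and 20 FPKM across KO 1 to KO 3, with a log2 difference of -0.14 (95% interval -0.51 to 0.24). The arachidonic acid epoxygenases Cyp2j6 and Cyp2j9 followed. Cyp2j6 had 10.4, 8.21 and 12.3 FPKM across WT 1 to WT 3 and 8.73, 8.29 and 7.63 FPKM across KO 1 to KO 3, a log2 difference of -0.28, with overlap since WT 2 lay below KO 1 and KO 2. Cyp2j9 had a mean of 5.71 FPKM and a log2 difference of -0.11. For both, the 95% intervals spanned 0. Cyp2s1, an enzyme of surface epithelia, had 2.42, 2.83 and 2.52 FPKM across WT 1 to WT 3 and 4.99, 3.64 and 2.85 FPKM across KO 1 to KO 3. KO 3 exceeded WT 2 by a small margin, and the log2 difference was 0.41 (95% interval -0.03 to 0.84, limma adjusted p = 0.394). Cyp2r1, a hydroxylase that starts vitamin D activation, had means of 1.3 FPKM in WT and 1.18 FPKM in the libraries labelled KO. Cyp2ab1 had 0.628, 1.85 and 0.958 FPKM across WT 1 to WT 3 and 1.14, 1.15 and 1.18 FPKM across KO 1 to KO 3, where the KO values lay within the WT range. The fatty acid hydroxylase Cyp2u1 lay under the filter, with 1.42, 0.925 and 1.51 FPKM across WT 1 to WT 3 and 0.768, 0.442 and 0.572 FPKM across KO 1 to KO 3. Its groups did not overlap, and with no filter on low values its log2 difference was -0.52 (limma adjusted p = 0.255). The large drug-oxidising subfamilies of the liver had very low values: the highest single value among 15 Cyp2c genes was 0.219 FPKM and among 7 Cyp3a genes 0.096 FPKM.

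Cyp1a1 and Cyp2b10 are classic targets of the chemical sensors Ahr and Nr1i3. Cyp1a1 had 7.46 FPKM in WT 1, 0.579 in WT 2 and 0.674 in WT 3, and 0.1, 0.229 and 1.83 FPKM across KO 1 to KO 3. A single library, WT 1, stood far above the rest, and KO 3 exceeded WT 2 and WT 3, so the groups overlapped. The log2 difference of -0.85 (limma adjusted p = 0.612) was -0.06 without WT 1 (limma adjusted p = 0.959) and -2.39 with sample weights (limma adjusted p = 0.0459). Cyp2b10, under the filter, was also highest in WT 1, with 1.87, 0.738 and 0.32 FPKM across WT 1 to WT 3 and 0.284, 0.392 and 0.337 FPKM across KO 1 to KO 3. Cyp1b1, which oxidises estrogens and polycyclic hydrocarbons, did not share this pattern. It had 22.9, 33.7 and 21.1 FPKM across WT 1 to WT 3 and 17.7, 22.3 and 27 FPKM across KO 1 to KO 3, with WT 2 the highest and a log2 difference of -0.20 (95% interval -0.72 to 0.32). Ahr itself, chosen after its values were seen, had a log2 difference of -0.07 (limma adjusted p = 0.922), which turned positive with WT 1, WT 2 or KO 2 left out.

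Family Cyp4 had 6 tested genes of 17. Its summed level was 106 ± 7.2 FPKM (SD, n = 3) in WT and 95 ± 8.35 FPKM in the libraries labelled KO. Cyp4f17, of a subfamily that hydroxylates fatty acids and leukotrienes, had 23.1, 23.2 and 19.6 FPKM across WT 1 to WT 3, against 9.38, 10.2 and 17.3 FPKM across KO 1 to KO 3. KO 3 lay close to WT 3, while KO 1 and KO 2 were well below every WT library. The log2 difference was -0.83 (95% interval -1.36 to -0.30, limma adjusted p = 0.223), and it passed with sample weights (-1.06, limma adjusted p = 0.0388). Relative to Adipoq the groups overlapped, with 0.827, 0.817 and 0.332 FPKM of Cyp4f17 per 100 FPKM of Adipoq across WT 1 to WT 3 and 0.448, 0.461 and 0.692 across KO 1 to KO 3. Its ratios to Plin1, Lipe and Pnpla2 kept the groups apart, with 2.11, 1.9 and 1.53 FPKM per 100 FPKM of Plin1 across WT 1 to WT 3 and 0.827, 0.977 and 1.43 across KO 1 to KO 3, and those to the 5 other markers overlapped.

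The other tested Cyp4 genes did not separate the groups. Cyp4b1, a fatty acid and furan oxidase, had 45, 45.4 and 28.7 FPKM across WT 1 to WT 3 and 37.7, 50.8 and 32.6 FPKM across KO 1 to KO 3. Its log2 difference was 0.03 (95% interval -0.53 to 0.58) and changed sign without WT 3 or KO 2 and with sample weights. Cyp4v3, the mouse counterpart of a fatty acid hydroxylase of the retina, had -0.04 (95% interval -0.34 to 0.25), and its sign turned positive after median-ratio scaling, after quantile normalization and without KO 3. Cyp4f13 and Cyp4f16, neighbours of Cyp4f17 in a cluster on chromosome 17, had -0.14 and -0.08. The leukotriene hydroxylase Cyp4f18 lies apart on chromosome 8 and had -0.21, with single values from 2.28 to 6.6 FPKM and overlap between the groups. Of the 50-base stretches of Cyp4f16, 26.5% also occur in another gene, mostly Cyp4f37, so its reads could have been split by the authors' counting.

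**Figure D3:**
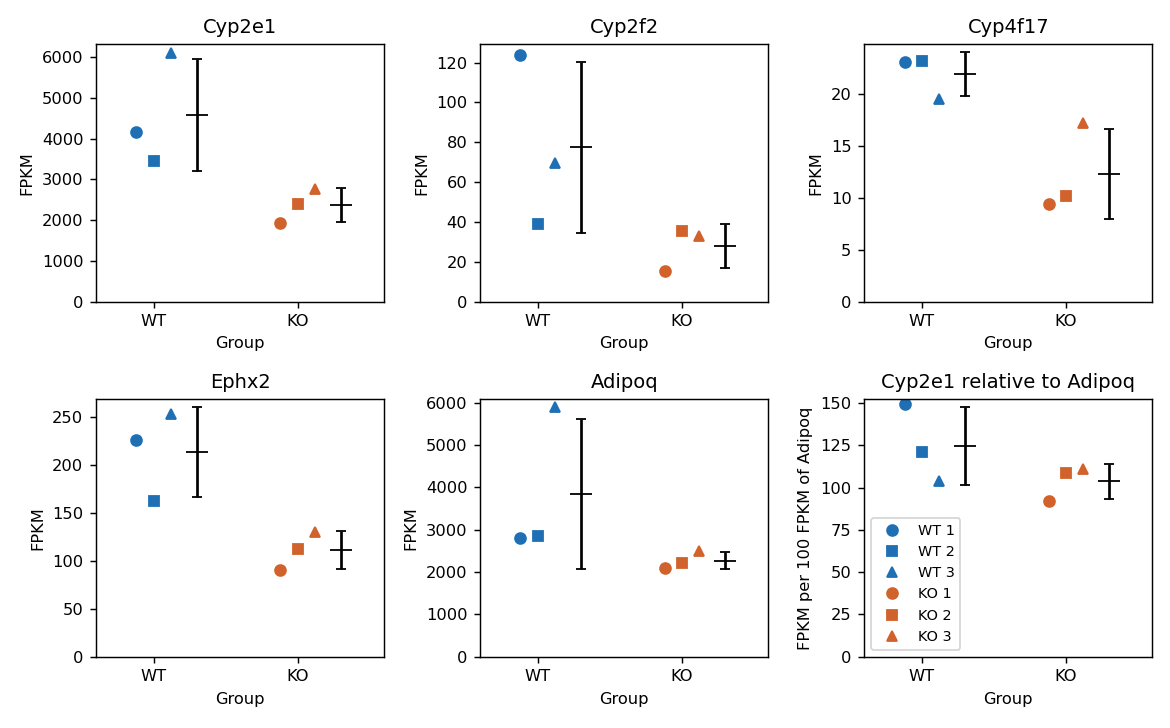
FPKM of Cyp2e1, Cyp2f2, Cyp4f17, Ephx2 and Adipoq in each library, and of Cyp2e1 per 100 FPKM of Adipoq, with the group mean and SD beside the points (n = 3; KO as labelled). The first 4 genes show no overlap between the groups, while the Cyp2e1 to Adipoq ratio overlaps, with WT 3 at 104 and KO 3 at 111; ratios to 3 of the 8 adipocyte markers do not overlap.

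Another 5 P450 genes, all low, had the order of libraries seen for Epcam. Cyp2d9, the most abundant of them, had 5.07, 3.8 and 2.24 FPKM across KO 1 to KO 3 and 1.23 FPKM in WT 1, and was listed at 0 in WT 2 and WT 3. It reached the filter of 1 FPKM only through the libraries labelled KO (mean 3.70 FPKM, against 0.409 FPKM in WT), so that it had to differ once tested, and its fitted values are a description. The log2 difference was 1.80 (95% interval 0.89 to 2.71, limma adjusted p = 0.223), with 2.19 without WT 1 (limma adjusted p = 0.0165), 1.38 with sample weights (limma adjusted p = 0.0451) and 3.93 at a pseudocount of 0.1. Cyp2d26 had 1.61, 1.72 and 0.636 FPKM across KO 1 to KO 3, 0.632 and 0.05 FPKM in WT 1 and WT 2, and was listed at 0 in WT 3. Cyp2d10 had 0.69, 1.17 and 0.346 FPKM in the same KO libraries, 0.133 FPKM in WT 1 and was at 0 in both WT 2 and WT 3. The Cyp4f15 gene, a further member of the chromosome 17 cluster, had 1.31, 1.47 and 0.9 FPKM across KO 1 to KO 3, 0.445 FPKM in WT 1 and a listed 0 in the 2 other WT libraries. Cyp2j13 had 1.21, 1.43 and 0.642 FPKM in the libraries labelled KO, 0.535 FPKM in WT 1 and was at 0 in both WT 2 and WT 3. In each of the 5, the order was therefore KO 1 and KO 2 above KO 3, KO 3 above WT 1, and WT 1 above WT 2 and WT 3. For Cyp2d26, however, KO 3 and WT 1 were nearly equal, at 0.636 and 0.632 FPKM. These 5 were grouped after their values were seen, and 4 of them lay under the filter. Fitted over every gene above 0 in any library, limma gave Cyp2d26 a log2 difference of 0.92 (adjusted p = 0.258), Cyp4f15 0.97, Cyp2j13 0.84 and Cyp2d10 0.71 (adjusted p = 0.255 for each of these 3).

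Summed epithelial and multiciliated markers followed the same order of libraries, though single markers did not all do so. The summed level of 8 general epithelial markers was 80.1, 15.1 and 8.01 FPKM across WT 1 to WT 3 and 179, 190 and 92.2 FPKM across KO 1 to KO 3, and 7 of the 8 reached 1 FPKM in WT 1 and in each KO library, but only 3 in WT 2 and 2 in WT 3. Of 8 multiciliated cell markers, 7 reached 1 FPKM in WT 1 and in the libraries labelled KO and 1 did in WT 2 and in WT 3. Their sum was 67.9, 35.8 and 47 FPKM across WT 1 to WT 3 and 150, 152 and 92.1 FPKM across KO 1 to KO 3. Among markers that broke the order, Cldn4 had 0.22 FPKM in WT 1 against 0.167 in KO 1 and 0.047 in KO 3. Tekt1 had 3.54 FPKM in WT 1 against 3.28 in KO 3, and Tppp3 had 40.3 in WT 1 against 46.3 in WT 3. Foxj1, the master factor of motile cilia, had 13.9 FPKM in WT 1, 0.034 in WT 2 and a listed 0 in WT 3, against 44.2, 43.2 and 20 FPKM across KO 1 to KO 3. Dnah9 was also listed at 0 in WT 3, Dnah5 in WT 2 and WT 3, and Mcidas in WT 2, WT 3 and KO 3. The part of epithelial RNA in these P450 values was not tested. Hnf4a, a nuclear receptor that drives P450 genes in liver and kidney tubule, had 4.21, 0.049 and 0 FPKM across WT 1 to WT 3 and 12.8, 11.5 and 5.78 FPKM across KO 1 to KO 3. Its log2 difference was 2.58 (limma adjusted p = 0.223), and 3.36 without WT 1 (limma adjusted p = 0.00818). With sample weights it was 1.53 (limma adjusted p = 0.0735), and at a pseudocount of 0.1 it was 4.58. Ratios to Epcam were read in WT 1 and the libraries labelled KO, since Epcam was near 0 in WT 2 and WT 3. Per 100 FPKM of Epcam, Cyp2j13 had 3.76 in WT 1 and 3.94, 4.16 and 3.9 across KO 1 to KO 3, and Cyp2d26 had 4.44 FPKM in WT 1 and 5.23, 5.01 and 3.87 in the libraries labelled KO. Cyp2d9 varied more, with 8.61 in WT 1 and 16.5, 11.1 and 13.6 across KO 1 to KO 3. Cyp2d10 had 0.934 in WT 1 and 2.24, 3.39 and 2.1 in the same KO libraries, and Cyp4f15 had 3.12 in WT 1 and 4.25, 4.27 and 5.47. For Cyp2d9, Cyp2d10, Cyp4f15 and Cyp2j13 WT 1 lay below every KO library, while for Cyp2d26 it did not.

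**Figure D4:**
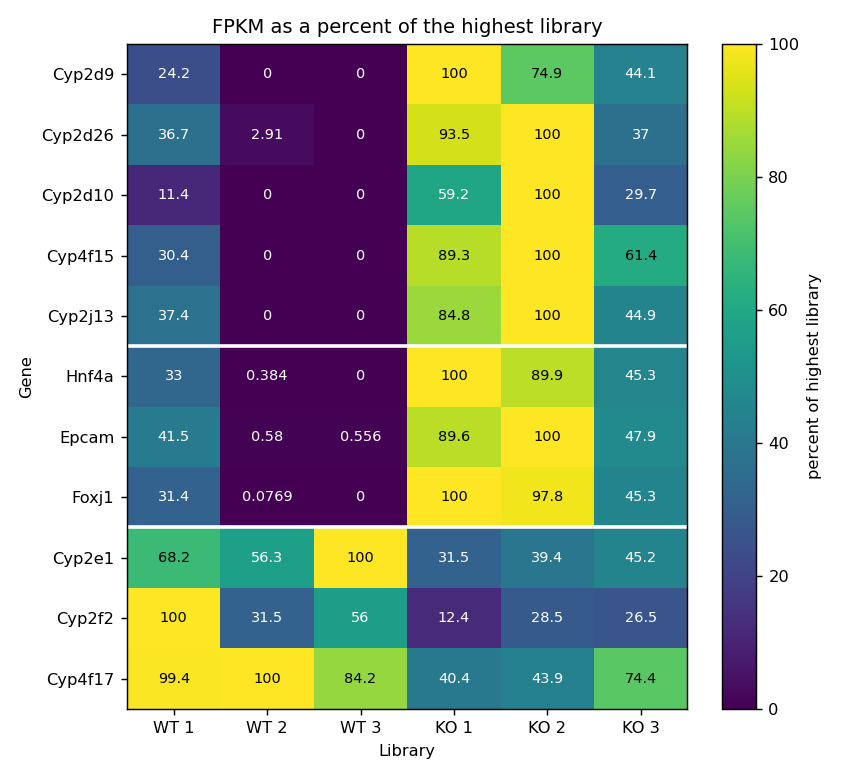
FPKM in each library as a percent of the gene's highest library, for 5 P450 genes (top), Hnf4a, Epcam and Foxj1 (middle) and the 3 P450 genes that lay lower in the KO libraries as labelled (bottom). The top and middle blocks share near 0 values in WT 2 and WT 3 and an intermediate WT 1, for instance 37.4% for Cyp2j13 and 41.5% for Epcam, and the bottom block does not.

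The Cyp2d genes lie together on chromosome 15 (GRCm38), from Cyp2d22 at 82370527 to 82380260 to Cyp2d26 at 82790101 to 82794294, 5.5 Mb from Zfp251 on the same chromosome. Levels within the cluster did not follow position. Cyp2d22, at one end, was similar in all libraries, with the differences given above. Cyp2d10 and Cyp2d9, 32.3 kb and 62.9 kb further on, and Cyp2d26 at 419.6 kb had the epithelial order of libraries, while the genes between them had means of at most 0.0377 FPKM in either group. Their sequences are alike: 29% of the 50-base stretches of Cyp2d9 and 40.5% of those of Cyp2d10 also occur in another gene, against 10.5% in Cyp2d26 and 4.99% in Cyp2d22. Single values of Cyp2d9 and Cyp2d10 are therefore uncertain, since reads could have been split between copies.

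**Figure D5:**
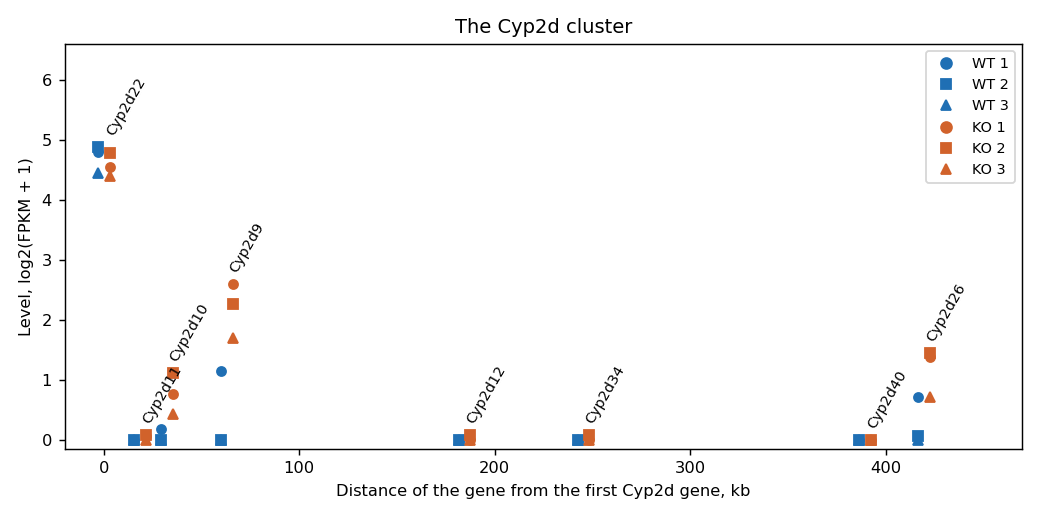
Level of the 8 Cyp2d genes, on the log2(FPKM + 1) scale, against distance from the first gene of the cluster in kb, with 1 point per library (blue WT, left of each position; orange the libraries labelled KO, right). Cyp2d22 is high in every library, and Cyp2d9, Cyp2d10 and Cyp2d26 have their highest points in KO 1 or KO 2.

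The promoters of the 3 Cyp2d genes with this order of libraries are printed to show how alike these neighbours are before their starts. They run from 250 bases before to 50 bases after the start of each gene (RefSeq, GRCm38.p6), 5′ to 3′ on the gene's strand. For Cyp2d9 this start lies inside the longer gene span given by GENCODE, 82433437 to 82456845. Cyp2d9 is at chr15:82452127-82452426 on the plus strand, Cyp2d10 at chr15:82407145-82407444 on the minus strand and Cyp2d26 at chr15:82794196-82794495 on the minus strand. Capitals mark 2 motifs searched on both strands, CAAAGNNCA, the core of a sequence that Hnf4a is known to bind, and TATAAA, a form of the TATA box. The exact match to TATAAA lies here on the opposite strand, and the gene's own strand reads TTTATAAGG at that place in all 3 genes.
Cyp2d9: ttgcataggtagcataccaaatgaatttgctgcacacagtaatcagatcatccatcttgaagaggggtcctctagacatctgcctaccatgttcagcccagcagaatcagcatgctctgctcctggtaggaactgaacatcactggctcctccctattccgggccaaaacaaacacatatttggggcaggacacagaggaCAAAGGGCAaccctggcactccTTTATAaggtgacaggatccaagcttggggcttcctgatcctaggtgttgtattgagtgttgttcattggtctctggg
Cyp2d10: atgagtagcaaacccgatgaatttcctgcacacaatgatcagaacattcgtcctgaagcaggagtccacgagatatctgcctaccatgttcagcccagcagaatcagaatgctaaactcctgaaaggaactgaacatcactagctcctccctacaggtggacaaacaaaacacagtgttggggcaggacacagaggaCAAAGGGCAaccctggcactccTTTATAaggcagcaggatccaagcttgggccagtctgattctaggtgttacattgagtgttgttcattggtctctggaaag
Cyp2d26: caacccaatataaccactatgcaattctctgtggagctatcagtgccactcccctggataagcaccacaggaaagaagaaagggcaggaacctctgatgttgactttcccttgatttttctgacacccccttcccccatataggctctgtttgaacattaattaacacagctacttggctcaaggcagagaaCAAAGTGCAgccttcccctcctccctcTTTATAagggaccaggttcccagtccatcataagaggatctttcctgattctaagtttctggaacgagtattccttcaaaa
In Cyp2d9 and Cyp2d10 the first motif reads CAAAGGGCA and in Cyp2d26 CAAAGTGCA, in each case upstream of the TATA match and not overlapping it. The windows of Cyp2d9 and Cyp2d10 had 84% identical bases, and that of Cyp2d26 had 57.3% and 55.3% in common with them. The window of Cyp2e1, from another subfamily and chromosome, gave 50.7% to 52.3% by the same measure, so the Cyp2d26 window stood little above that level. CAAAGNNCA occurs in 6.36% of all 32851 promoter windows, TATAAA in 13.6% and both in 1.01%. Of the 93 P450 genes, 72 had a window in the table, and among these 33.3% held CAAAGNNCA, 41.7% TATAAA and 23.6% both. Many P450 genes are copies of one another, so these windows are not independent. Most P450 windows with both motifs belong to genes at or near 0 FPKM here, such as Cyp2c70 and Cyp8b1. Among the 24 genes with a window and a mean of at least 0.3 FPKM, the 3 Cyp2d genes were those with both motifs, and Cyp2j13 and Cyp4f15 had neither. The motifs were chosen after the sequences were seen, and a match is a description, not a binding site.

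Among enzymes of sterol metabolism, Cyp27a1, the sterol hydroxylase of mitochondria, was abundant. It had 25.2, 33.9 and 51 FPKM across WT 1 to WT 3 and 34.6, 32.5 and 29.7 FPKM across KO 1 to KO 3. WT 3 was the highest and WT 1 the lowest library, and the log2 difference was -0.12 (95% interval -0.70 to 0.45), positive without WT 3. The oxysterol hydroxylase Cyp39a1 had 1.81 ± 0.453 FPKM (SD, n = 3) in WT and 1.62 ± 0.207 FPKM in the libraries labelled KO. Under the filter, Cyp7b1, another oxysterol hydroxylase, had 0.642 to 1.01 FPKM in WT and 0.776 to 0.982 FPKM in the libraries labelled KO, and Cyp46a1, which clears brain cholesterol, had 0.206 to 0.787 and 0.348 to 0.749 FPKM. Cyp4f39, of the fatty acid group, had 0.042 to 0.77 FPKM in WT and 0.258 to 0.279 FPKM in the libraries labelled KO. The bile acid enzymes Cyp7a1 and Cyp8b1, the vitamin D enzymes Cyp27b1 and Cyp24a1, and the retinoic acid enzymes Cyp26a1 and Cyp26c1 had means of at most 0.0792 FPKM.

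Steroid-making P450 genes were close to 0. Cyp11a1, which starts steroid synthesis, had a highest single value of 0.355 FPKM, Cyp21a1 of 0.379 FPKM and Cyp17a1 of 0.251 FPKM. The aromatase gene Cyp19a1 reached at most 0.024 FPKM, and Cyp11b1 and Cyp11b2 were listed at 0 throughout. Star, which brings cholesterol to Cyp11a1, had 0.877 to 1.75 FPKM. Cyp20a1, an orphan enzyme with no settled substrate, was in contrast steady at 13.3, 14.5 and 18.1 FPKM across WT 1 to WT 3 and 12, 13.6 and 12.7 FPKM across KO 1 to KO 3, with a log2 difference of -0.23 (95% interval -0.55 to 0.09).

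The order of the more abundant P450 genes by level was similar across libraries. Cyp2e1 came first in all 6. Cyp4b1 ranked 2 to 4, Cyp27a1 3 to 5, Cyp2d22 4 to 6 and Cyp1b1 5 to 7, so that neighbours in this order exchanged places between libraries. Cyp2f2 moved most among the abundant genes, from rank 2 to rank 7. Cyp4f17 and Cyp4v3 ranked 6 to 10, and Cyp20a1 and Cyp4f13 8 to 10. Cyp2j6 held rank 11 and Cyp4f16 rank 12 in every library. Some lower tested genes moved more: Cyp2d9 ranked 13 to 38, Cyp1a1 13 to 36 and Cyp2ab1 16 to 25. Others did not, with Cyp2j9 at 13 to 15 and Cyp39a1 at 16 to 18.

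Partners of the P450 enzymes were read from pathway lists. Of 15 tested electron donors and heme supply genes, 1 had an unadjusted p under 0.05 and lay lower in the libraries labelled KO, beside 4.43% of all tested genes, and 13 of the 15 had lower values, beside 59.2% of all (median log2 difference -0.24). That gene was Pgrmc2, a heme-binding partner, at 66.9, 56.6 and 76.2 FPKM across WT 1 to WT 3 and 45.9, 51.2 and 50.8 FPKM across KO 1 to KO 3 (log2 difference -0.42, limma adjusted p = 0.255, and 0.039 with sample weights). Cytochrome b5 (Cyb5a), an accessory electron donor, had a log2 difference of -0.56, Cyb5r4 one of -0.27 and the mitochondrial donor Fdx1 one of -0.47. For none of the 3 was the unadjusted p under 0.05, and without WT 3 the values were -0.32, -0.21 and -0.22. Cyb5a was -0.81 without WT 2 and -0.23 after quantile normalization, and it passed with sample weights (-0.52, limma adjusted p = 0.0475), where Cyb5r4 and Fdx1 did not. Por, chosen after its values were seen, had 241, 283 and 251 FPKM across WT 1 to WT 3 and 277, 255 and 247 FPKM across KO 1 to KO 3. Its log2 difference of 0.01 (95% interval -0.30 to 0.32) changed sign with single libraries left out.

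Of 18 tested nuclear receptors and transcription factors that control P450 genes, 4 were higher and 2 lower at an unadjusted p under 0.05, beside 9.13% and 4.43% of all tested genes (median log2 difference -0.02). Among those with the smallest p were Hnf4a, given above, Rxrg at -0.55 and Rara at 0.37. Rxrg, a retinoid X receptor, had 9.02, 10.5 and 14.2 FPKM across WT 1 to WT 3 and 6.31, 7.88 and 7.64 FPKM across KO 1 to KO 3, with no overlap (limma adjusted p = 0.25). Rara, a retinoic acid receptor, had 7.47, 6.71 and 5.55 FPKM across WT 1 to WT 3 and 9.06, 8.21 and 8.96 FPKM across KO 1 to KO 3 (limma adjusted p = 0.28). The xenobiotic receptors Nr1i2 and Nr1i3, chosen after their values were seen, had at most 0.354 FPKM in any library.

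Among 9 tested eicosanoid genes, 1 was higher and 1 lower at an unadjusted p under 0.05, against the same all-gene shares (median log2 difference 0.03). The lower gene was Ephx2, the soluble epoxide hydrolase that breaks down the epoxides made by Cyp2j and Cyp2c enzymes. It had 226, 162 and 253 FPKM across WT 1 to WT 3 and 90.8, 113 and 131 FPKM across KO 1 to KO 3, a ratio of means of 0.521. The groups did not overlap, and the log2 difference was -0.93 (95% interval -1.43 to -0.42, limma adjusted p = 0.223), passing with sample weights (-1.10, limma adjusted p = 0.0367). Per 100 FPKM of Adipoq it had 8.09, 5.71 and 4.3 FPKM across WT 1 to WT 3 and 4.33, 5.09 and 5.23 FPKM across KO 1 to KO 3, which overlapped. Its ratios to Plin1, Cidec and Lipe did not overlap, with 20.6, 13.3 and 19.8 FPKM per 100 FPKM of Plin1 across WT 1 to WT 3 against 8, 10.8 and 10.8 in the KO libraries, and those to the 5 other markers did. The higher gene was Alox12, a lipoxygenase, with 5.6, 0.509 and 1.78 FPKM across WT 1 to WT 3 and 9.72, 10.7 and 5.41 FPKM across KO 1 to KO 3 (log2 difference 1.62, limma adjusted p = 0.252). WT 1 lay just above KO 3, so the groups overlapped, and without WT 1 the difference was 2.18 (limma adjusted p = 0.0305). It was 1.12 without WT 2 and 0.89 with sample weights (limma adjusted p = 0.161). The microsomal epoxide hydrolase Ephx1 had 0.49 and the lipoxygenase Alox5 had 0.24, both with overlap between the groups.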

How the data were processed

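Libraries were prepared from TRIzol-extracted RNA with the Illumina TruSeq stranded mRNA kit, per the labels' protocols. The submitters' processing notes name STAR 2.5.4, Cufflinks, Cuffdiff 2.2.1 and the mm10 build. The authors deposited 1 table of values per gene and library, taken here as FPKM from those tools and from the values themselves. Of 21853 rows, 24 repeated a symbol and were dropped. Fitting used log2(FPKM + 1) in limma 3.58.1 (R 4.3.3, with a mean-variance trend) over the 12539 genes averaging 1 FPKM or more, with Benjamini-Hochberg adjustment and a threshold of 0.05. Such differences understate the change of low genes. The fit was tested on simulated data. Depth is unknown, so no counting intervals were given. Gene positions and lengths came from GENCODE, and promoters from RefSeq GRCm38.p6. The alternatives were other pseudocounts, filters, scalings and variance models, sample weights, a replicate block, each library left out and a correction for transcript length and GC content, chosen after seeing the data.

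Every P450 gene with a mean of at least 1 FPKM was named. Values in every library were given for the 6 most abundant, for those with an unadjusted p under 0.05 and for the 4 smallest p in each direction. Genes from 0.3 FPKM were named, as were up to 4 genes of each pathway list by smallest p. The genes and lists were chosen with earlier results of these data known. A result on 1 listed gene is not reported here.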

Additional observations from a re-analysis of the deposited data

How the results depend on the processing

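No gene passed limma's adjusted threshold in the main analysis, while 970 passed with sample weights (511 higher, 459 lower in the libraries labelled KO) and 0 to 482 when 1 library was dropped (482 without WT 1, of which 469 were higher). P450 genes with an unadjusted p under 0.05 numbered 4 of 20 (all genes 13.6%), 9 of 63 with no filter (14.3%, all genes 13.5%) and 9 of 20 with sample weights (45%, all genes 31.2%). With a library left out they numbered 2 to 5 of 20 (10% to 25%), while the share of all genes ran from 6.91% to 17.5%. Both shares were lowest without KO 1. The median log2 difference of -0.13 became 0.012 with no filter. The difference of summed P450 FPKM, -2280, was -997.7 after quantile normalization and -2863 to -1517 with a library left out. The causes were not tested.

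Among 35 named genes, 506 values kept their direction and side of the threshold, 14 passed it and 29 reversed. Reversed values were Cyp4v3 0.00409 with median-ratio scaling; Cyp27a1 0.00142, Cyp2ab1 -0.352 and Cyp4v3 0.000377 with quantile normalization; Cyp27a1 0.319, Cyp39a1 0.0519, Cyp4b1 -0.143, Cyp4f13 0.0178 and Cyp4f18 0.0752 with sample weights; and Cyp2r1 0.0696 and Por -0.11 with the length and GC correction. With a library left out, signs changed within -0.131 to 0.274 for Cyp2ab1, -0.0399 to 0.0753 for Por, -0.382 to 0.118 for Ahr, -0.338 to 0.000759 for Cyp1b1, -0.525 to 0.0453 for Cyp4f18, -0.359 to 0.137 for Cyp27a1, -0.131 to 1.71e-06 for Cyp2r1, -0.161 to 0.0382 for Cyp39a1, -0.184 to 0.167 for Cyp4b1, -0.232 to 0.0365 for Cyp4f13, -0.183 to 0.00507 for Cyp4f16 and -0.0996 to 0.0608 for Cyp4v3.

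The replicate block gave 0 genes past the threshold, 4 P450 genes at an unadjusted p under 0.05 and a median of -0.13. With the block, limma adjusted p moved both ways, for instance from 0.223 to 0.0881 for Cyp2d9 and from 0.276 to 0.325 for Cyp2f2. Deviations from the group means correlated at 0.228, -0.2 and 0.22 between same-numbered libraries. Between libraries of unlike number they ran from -0.477 to 0.426. With 3 libraries in each group these values cannot tell whether same-numbered libraries were paired. A filter of 5 FPKM gave no value for the low genes, Cyp2d9 among them. The share of higher values among unadjusted calls ran from 47.5% to 75.4% over the filters, scalings and corrections.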
